A study of Mus musculus with 4 samples.

Results

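The development of vessels and blood was examined at 10 mouse genes by the chromatin accessibility of posterior forelimb buds at embryonic day E10.5. The genes were chosen from textbook knowledge of both lineages, with earlier results of these data known. They were Kdr, Tek, Cdh5, Pecam1, Erg and Fli1 for the endothelium, the inner lining of vessels, and Tal1, Gata1, Gata2 and Runx1 for blood. They are 10 of the 21938 protein-coding genes of GENCODE M21. ATAC-seq, in which the Tn5 transposase inserts adapters into open chromatin, was done on 2 wild-type (WT) and 2 Shh-/- embryos of 35 somites, all of Swiss Webster background. Every library was made from the posterior parts of the forelimb bud pair of a single embryo, with 5000 cells and 18 PCR cycles. The Shh-/- embryos carry the null allele Shh tm1amc of Sonic hedgehog in all cells, and no cells were sorted, so vessel and blood cells were measured within a bulk of mesenchyme and ectoderm. The study made the comparison to learn how chromatin opens with and without Hedgehog signaling, and the lineages described here were not its subject.

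The limb bud of this stage is already fed by a vascular plexus, and primitive red cells from the yolk sac circulate through it. Endothelial cells sense VEGF through KDR, and a shared set of factors, among them ETS proteins such as ERG and FLI1, TAL1 and GATA2, works in endothelial and blood progenitors alike. RUNX1 is needed where blood stem cells arise from endothelium, and GATA1 drives red cell maturation. TEK, the receptor of angiopoietins, and the adhesion proteins encoded by Cdh5 (VE-cadherin) and Pecam1 (CD31) belong to differentiated endothelium.

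Each library was a list of peaks that the authors called in that library alone, and the files do not give the depth behind each list. The study's methods state a single nominal depth for all libraries. The lists held 39080 and 11973 peaks for the WT libraries, called WT1 and WT2 by their replicate numbers, and 5589 and 18459 peaks for the Shh-/- libraries, called Shh1 and Shh2. Thus list length differed several-fold between libraries of the same genotype. Peaks overlapping by at least 1 bp were joined across libraries into 44692 regions. Of these, 64 lay in the bodies of the 10 genes or within 50 kb on either side. They came from 60 peaks of WT1, 10 of WT2, 5 of Shh1 and 21 of Shh2. At least 1 such peak was found for 9 of the 10 genes with WT1, 6 with WT2, 3 with Shh1 and 9 with Shh2, where the background over protein-coding genes was 80.3%, 66.9%, 43.9% and 75.0%. The mean per window was 6, 1, 0.5 and 2.1 peaks, beside 5.29, 1.74, 0.774 and 2.44 for all protein-coding genes. Strength is given below as the within-list rank, which is 1 plus the number of peaks with a higher score in the same list, or as the percent of the list with a higher score. Many peaks share a score and thus a rank, such as 447 peaks of WT1 at the score of Kdr. A peak that is missing was not called. Closed chromatin, an accessible site in too few of the 5000 cells and low depth cannot be told apart in these lists.

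To place the sequences beside the values, 200 bp around the best ranked summit are printed for 7 regions (mm10, plus strand). Searched on both strands were GATA motifs (AGATAA or TGATAA), ETS motifs (AGGAAG or CGGAAG), a forkhead and ETS composite (AACAGGA), a RUNX motif (TGTGGT) and an E-box to which TAL1 can bind (CATCTG). Capitals mark the matches on either strand (CAGATG is CATCTG read on the minus strand), and all other bases are in lower case. The first 4 are distal regions, that is outside of promoters, that were called in at least 2 libraries, taken in order of the percent of peaks scoring higher, averaged over the libraries that called each. The order depends on which libraries those were, and in WT1 alone the Runx1 exon is behind the Fli1 3' flank. They lie in an intron of Erg (chr16:95469892-95470091), 3' of Tal1 (chr4:115095846-115096045), in a coding exon of Runx1 (chr16:92605721-92605920) and upstream of Tal1 (chr4:115052611-115052810).
Erg intron: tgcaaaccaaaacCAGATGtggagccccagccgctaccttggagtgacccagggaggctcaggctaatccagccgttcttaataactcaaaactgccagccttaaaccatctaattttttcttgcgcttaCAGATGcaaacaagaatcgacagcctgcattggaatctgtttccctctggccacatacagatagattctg
Tal1 3' flank: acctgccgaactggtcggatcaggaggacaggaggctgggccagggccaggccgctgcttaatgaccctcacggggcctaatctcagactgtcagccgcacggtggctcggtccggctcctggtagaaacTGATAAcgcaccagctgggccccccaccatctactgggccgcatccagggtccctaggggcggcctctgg
Runx1 exon: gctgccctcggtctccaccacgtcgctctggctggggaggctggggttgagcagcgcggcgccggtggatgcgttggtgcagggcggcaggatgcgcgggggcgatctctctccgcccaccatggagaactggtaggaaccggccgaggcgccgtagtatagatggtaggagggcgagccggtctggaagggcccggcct
Tal1 upstream: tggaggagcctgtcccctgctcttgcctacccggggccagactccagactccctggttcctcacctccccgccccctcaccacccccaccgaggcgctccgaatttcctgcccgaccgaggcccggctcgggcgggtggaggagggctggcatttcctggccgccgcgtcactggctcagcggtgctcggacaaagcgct

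The other 3 were added after the values were seen. Both Fli1 regions were called in 3 libraries, at its 3' flank (chr9:32409081-32409280) and its 5' end (chr9:32543174-32543373), and the intron of Gata2 (chr6:88203108-88203307) holds a pair of motifs. The stretch printed for the Fli1 3' flank surrounds the WT1 summit. It lies outside the peaks of Shh1 (chr9:32409651-32409855) and Shh2 (chr9:32409374-32409869) in the same region.
Fli1 3' flank: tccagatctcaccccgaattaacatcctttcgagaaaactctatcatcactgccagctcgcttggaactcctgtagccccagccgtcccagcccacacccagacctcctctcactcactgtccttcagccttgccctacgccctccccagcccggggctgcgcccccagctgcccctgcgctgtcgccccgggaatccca
Fli1 5' end: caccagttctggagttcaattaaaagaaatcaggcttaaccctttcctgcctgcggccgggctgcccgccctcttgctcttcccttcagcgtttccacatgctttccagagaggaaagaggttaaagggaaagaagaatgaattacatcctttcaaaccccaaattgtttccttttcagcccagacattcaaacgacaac
Gata2 intron: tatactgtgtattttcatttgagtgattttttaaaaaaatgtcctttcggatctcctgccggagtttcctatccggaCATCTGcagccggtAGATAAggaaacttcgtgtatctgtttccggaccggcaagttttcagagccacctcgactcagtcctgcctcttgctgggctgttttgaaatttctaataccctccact

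A promoter peak was defined as a peak that overlaps the window from 2 kb before to 1 kb after a transcription start site (TSS), and 6 of the 10 genes had one in at least 1 library. They were Kdr, Erg, Fli1, Tal1, Gata2 and Runx1. Tek, Cdh5, Pecam1 and Gata1 had none. Of all protein-coding genes 62.1% had a promoter peak in at least 1 library, so the share among the 10 genes was near the background. A promoter peak in at least 2 libraries was found at 5 genes, against 51.8% of protein-coding genes. None of the 10 had a promoter peak in all 4 libraries. In Shh1 17.3% of protein-coding genes had a promoter peak, so no larger share of all genes can have one in all 4.

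By library, promoter peaks were called at 6 of the 10 genes in WT1 (background 60.4%), at 1 in WT2 (39.2%), at 1 in Shh1 (17.3%) and at 5 in Shh2 (51.3%). The counts followed the length of the lists, with WT2 and Shh1 tied, and did not separate the genotypes. In the longest 2 lists the count was close to the background. In WT2 it was lower, and in Shh1 1 of 10 beside 17.3% is too small a gap to read in 10 genes. With peaks of score 50 or more alone, 6, 0, 1 and 3 genes kept one in WT1, WT2, Shh1 and Shh2 (background 51.2%, 25.4%, 14% and 44.2%), 6 in at least 1 library (53.0%) and 3 in at least 2 libraries (43.1%). Among endothelial genes the count was 3 of 6 in WT1, 0 in WT2, 1 in Shh1 and 3 in Shh2, and among blood genes it was 3 of 4, 1, 0 and 2.

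**Figure D1:**
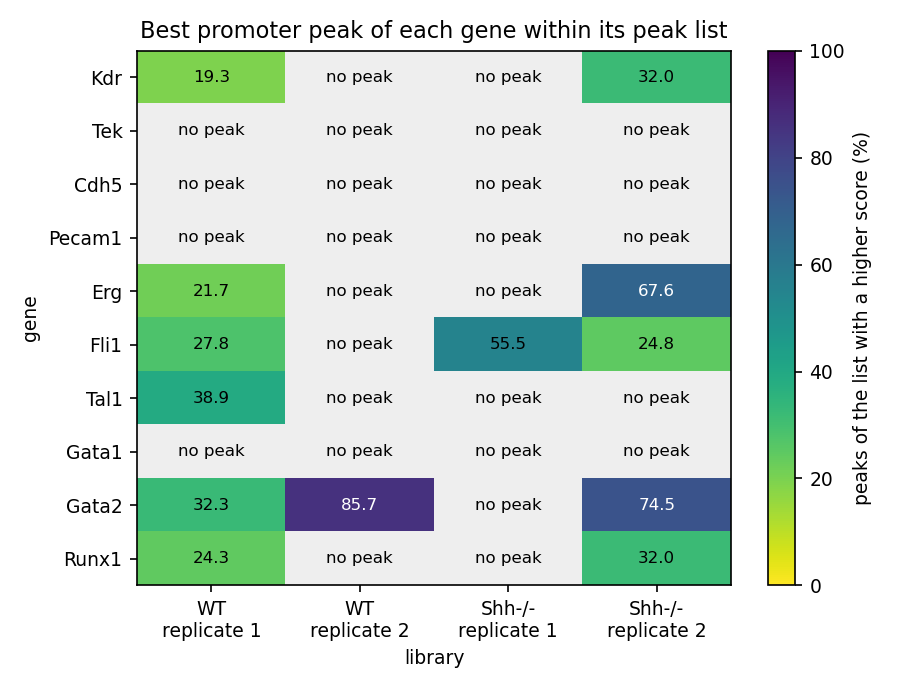
Rows are the 10 genes and columns the 4 libraries; the number and color give the percent of peaks in the same list that score higher than the best promoter peak (0 is the top of the list), and gray cells had no promoter peak. Promoter peaks of 6 genes are seen in WT1 and of 5 genes in Shh2, against 1 gene in each other library, while Tek, Cdh5, Pecam1 and Gata1 are gray throughout.

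The promoter of Kdr, the main VEGF receptor of the endothelium, had the best rank of these genes in WT1. Its peak (chr5:75977921-75978866 in WT1, chr5:75978039-75978700 in Shh2) covers the TSS, with the summit 0.083 kb into the gene. It ranked 7550 in WT1, where 19.3% of peaks scored higher, and 5910 in Shh2, where 32.01% did. It was not called in WT2 or Shh1. This was the only region of the Kdr window, and the rest of the gene and both flanks held no peak in any library. The same pair of libraries, and no other, called the promoters of 2583 protein-coding genes (11.8%), Erg and Runx1 included.

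The ETS factors Erg and Fli1 had more regions in their windows than Kdr (4 and 12 against 1), and both are longer genes. At Erg, the promoter peak (chr16:95585328-95585861) had its summit in an intron, 0.954 kb from the TSS, with ranks of 8466 in WT1 (21.7% scored higher) and 12483 in Shh2 (67.6%). The intronic region printed above (chr16:95469826-95470280) was called in the same libraries, at ranks 8950 (22.9%) and 6747 (36.5%). Its summit was at -10.6 kb from the nearest internal TSS, that is upstream of it, and 117 kb from the most 5' one. Both of its motif matches are E-boxes on the minus strand, at positions 14 and 131 of the printed sequence. Thus the internal region outranked the promoter in Shh2 and the values lay close together in WT1. The other 2 regions of Erg were called only in WT1, with 60.1% and 86.5% of peaks above them.

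Fli1 had 12 regions, 11 of them not at the promoter of another gene, and 2 that were called in both Shh-/- libraries. The region at the 5' end (chr9:32542411-32543516) had ranks of 10857 in WT1 (27.8% scored higher), 3101 in Shh1 (55.5%) and 4582 in Shh2 (24.8%). Its best summit was at -1.68 kb from the TSS of the basic GENCODE set (minus is upstream) and at -0.413 kb from the nearest TSS of the comprehensive set. The region 3' of the gene (chr9:32408993-32409927), in intergenic sequence 132 kb from the TSS, had ranks of 15186 in WT1 (38.9%), 3984 in Shh1 (71.3%) and 11386 in Shh2 (61.7%). Neither was called in WT2. Of all regions 2.26% were called in these 3 libraries and not in WT2. Neither printed Fli1 sequence held any of the motifs, and the one from the 3' flank covers the WT1 peak only.

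Fli1 also had 3 weaker regions called in WT1 and Shh2. The first was 1.07 kb into the gene (chr9:32540324-32541087, 43.9% and 91.4% scoring higher), and the others were upstream, at -4.55 kb (chr9:32545488-32546213, 60.1% and 74.5%) and -9.01 kb (chr9:32550434-32550918, 72.5% and 67.6%). The value of -4.55 kb is the WT1 summit. The Shh2 summit of that region was at -3.96 kb, and the peaks overlap only at their ends. Together with 3 regions called in WT1 alone, 4 promoter regions and 3 upstream regions lay between 1.07 and -9.01 kb. In the body of the gene WT1 had a peak 46.4 kb from the TSS (27.8% scoring higher) that no other library called.

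Tek, Cdh5 and Pecam1, the genes of differentiated endothelium, had no promoter peak in any library. Tek was without any peak in its 136 kb and both flanks, in all 4 lists. At Cdh5, WT1 alone had an intronic peak 23.7 kb from the TSS (chr8:104125043-104125445, 50.6% scoring higher) and 2 weak peaks upstream (86.5%). At Pecam1, WT1 alone had peaks in the body (60.1% and 97.0%) and in the 3' flank (97.0%). The remaining peaks around Cdh5 and Pecam1 belonged to promoters of other genes: Bean1 for Cdh5, and Tex2, Polg2 and the shared promoter of Ddx5 and Cep95 for Pecam1. The last was the best ranked peak of all 10 windows in every library, at ranks 643 and 557 in WT and 966 and 489 in Shh-/-. The strongest accessibility in the 10 windows thus lay beside a gene that had no promoter peak itself.

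Tal1, a bHLH factor required for all blood formation, had 7 regions, and the best supported was not at its promoter. The promoter peak (chr4:115056717-115057475) was called in WT1 only, at rank 15186 (38.9% scoring higher). The 3' flank region (chr4:115095527-115096410), 39.5 kb from the first TSS and beyond the neighboring gene Pdzk1ip1, was called in 3 libraries. Its ranks were 11668 in WT1 (29.9%), 10265 in WT2 (85.7%) and 4300 in Shh2 (23.3%). The flank outranked the promoter in WT1, and in Shh2 it was the best ranked peak of the windows outside promoters of other genes. The sequence printed above holds 1 GATA motif, TGATAA at position 131. An enhancer active in red cells is known from the 3' side of Tal1 near this distance, but its coordinates were not compared here.

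Tal1 had 2 more regions in both WT1 and Shh2. The upstream region (chr4:115052443-115053040), at -3.72 kb from the TSS, had 38.9% and 74.5% of peaks above it, and the region in the gene (chr4:115062979-115063544), 6.91 kb after the first TSS and in exonic sequence, had 50.6% and 67.6%. The printed upstream sequence held none of the motifs searched. The summits were rich in G and C, with 70.5% upstream, 75.0% in the gene and 66.0% in the 3' flank. The median was 53.0% in distal regions of the whole series, however many libraries called them. These Tal1 regions were chosen as called in at least 2 libraries, so that median is not a like background. Over regions of all classes, the median was 56.0% in those called in WT1, 63.0% in WT2, 58.0% in Shh1 and 61.0% in Shh2. The distal Tal1 regions called in WT1 alone were all below 53.0%. Whether GC content is a trait of this locus was not tested.

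Gata2, which maintains blood progenitors and is also used in endothelium, had 19 regions, the most of the 10 genes. Only 1 of them was called in more than 1 library, a promoter region at the second TSS (chr6:88197958-88199752). It was called in WT1 (rank 12610, 32.3% scoring higher), WT2 (rank 10265, 85.7%) and Shh2 (rank 13750, 74.5%), and this was the sole promoter peak of the 10 genes in WT2. The first TSS had a peak only in Shh2 (chr6:88193970-88194298, 82.99%). WT1 had 16 peaks in the Gata2 window against 2 in Shh2, 3 in WT2 and 0 in Shh1. Of the flank, 8 regions lay in introns of the neighbor Dnajb8, each called in a single WT library, with at least 50.6% of peaks above it.

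An intronic peak of Gata2 (chr6:88203104-88203455), 9.32 kb from the first TSS, was called in WT1 alone (rank 17141, 43.9% scoring higher). It is named because its sequence holds an E-box (CATCTG at position 78) followed by a GATA motif (AGATAA at position 92) on the plus strand, and it was picked out after its values were seen. An intronic Gata2 element with this pair of motifs is known to act in blood stem cells and vessels, and its coordinates were not compared here. The GC content of the printed sequence was 44.5%, below the median of distal regions.

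Runx1 had peaks at its internal start sites and none at the most 5' one. The region over an internal TSS (chr16:92696917-92698895) was 1979 bp long, with ranks of 9512 in WT1 (24.3% scoring higher) and 5910 in Shh2 (32.01%). The most 5' TSS, 128 kb away, had no peak in any library. A peak at the next internal TSS (chr16:92695442-92695704) was called in Shh2 alone (67.6%). Runx1 held the 1 region of all windows that was called in both WT libraries and in neither Shh-/- library, in a coding exon near its 3' end (chr16:92605750-92606369). It ranked 19761 in WT1 (50.6%) and 7510 in WT2 (62.7%), and was the best ranked peak of WT2 outside promoters of other genes. The exon is rich in G and C (70.0% of the printed bases) and holds none of the motifs. An intronic region (chr16:92738329-92739228) was called in WT1 and Shh2 with 60.1% and 74.5% of peaks above it.

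Gata1, the X-linked master factor of red cells, had no peak in its body or promoter in any library. Its window held the promoter of Hdac6, a histone deacetylase gene, in all 4 libraries (chrX:7947574-7948441, with 4.67% and 17.5% of peaks above it in WT and 18.9% and 11.1% in Shh-/-). The only other peak was at -34.4 kb from the TSS, in WT1, with 72.5% of peaks above it.

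**Figure D2:**
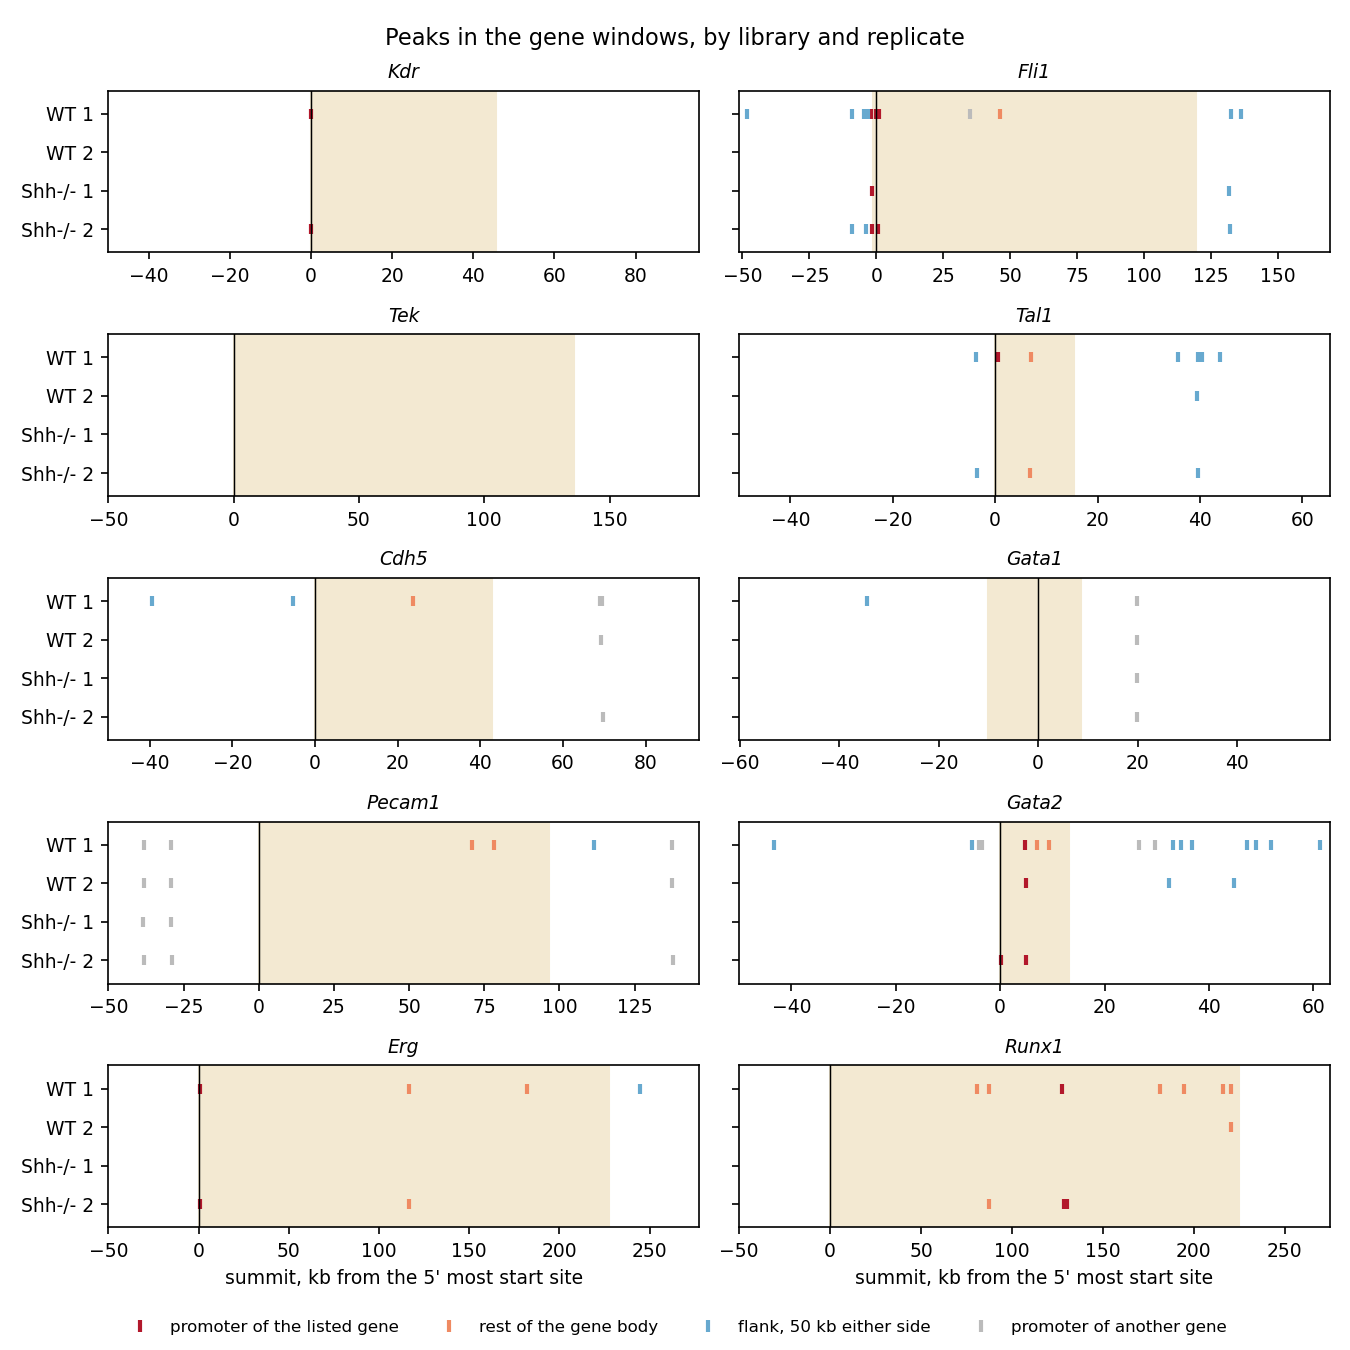
Each panel spans a gene (tan) and 50 kb on either side, with the horizontal axis in kb from the most 5' TSS in the direction of transcription (black line at 0) and a row of ticks per library at the peak summits, colored by class. Ticks outside gray recur between WT1 and Shh2 at Kdr, Erg, Fli1, Tal1, Gata2 and Runx1, and all 3 regions called in every library are gray (Polg2 and Ddx5 near Pecam1, Hdac6 near Gata1).

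Of the 64 regions, 11 were at promoters of other genes, and those included all 3 that were called in every library (background 7.97% of regions). Over all 64, 20 were called in at least 2 libraries (31.25%), beside 35.8% of all regions of the series. Of the 53 that remained, 15 were called in at least 2 libraries (28.3%) and 34 in WT1 alone. The 35.8% includes promoters of all genes, so it is not a like background for these 53. Of the 42 distal ones, 9 were called in at least 2 libraries (21.4%), against 17.0% of all distal regions. By pattern, 40 of the 64 regions were in WT1 alone (background 51.6%), 10 in WT1 and Shh2 (11.0%), 4 in all but Shh1 (11.3%), 2 in all but WT2, 2 in WT2 alone (4.28%) and 2 in Shh2 alone (7.33%). Peaks at promoters of other genes made up 18.3% of the window peaks in WT1 (95% Wilson interval 10.6 to 29.9%), 50% in WT2 (23.7 to 76.3%), 60% in Shh1 (23.1 to 88.2%) and 23.8% in Shh2 (10.6 to 45.1%). These intervals cover counting error only. The shorter lists thus had the larger shares, with wide intervals.

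To ask whether accessibility around these genes differed by genotype, window peaks were compared between WT and Shh-/-. The mean was 35.0 ± 35.4 peaks in WT and 13.0 ± 11.3 in Shh-/- (SD, n = 2), a difference of 22 that was smaller than the SD in WT. A two-sided exact permutation test over the 4 libraries gave p = 0.667, and 2 against 2 libraries cannot give less than 0.333. Per 10000 peaks of the list there were 15.4 and 8.35 in WT and 8.95 and 11.4 in Shh-/-, with means of 11.9 ± 4.95 and 10.2 ± 1.72 (SD, n = 2, exact permutation test, p = 1.0). The groups overlapped in both measures. Without WT1 the difference turned to -3 peaks and to -1.81 per 10000. No region was called in both Shh-/- libraries and in neither WT library (background 0.396%), which changed at equal list length, and the 1 region of the reverse kind, in Runx1, compares with 2.09% of all regions.

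When each list was limited to its 5589 best peaks, the length of the shortest list, the order turned. Then 3 window peaks remained in each WT library, all at promoters of other genes, against 5 and 6 in Shh-/- (difference -2.5, p = 0.333 by the exact permutation test, its minimum here). In Shh1 the peaks outside promoters of other genes were those at the 5' end and 3' flank of Fli1. In Shh2 they were at the 5' end of Fli1 and the 3' flank of Tal1. Of the 10 genes 0 had a promoter peak in either WT library (background 25.5% and 25.4%), and Fli1 alone had a promoter peak in each Shh-/- library (background 17.3% and 25.2%). The background for at least 1 library was then 33.6% and for at least 2 libraries 25.9%. The lists then end at scores of 209 and 49 in WT and 19 and 144 in Shh-/-. At this size the best peak outside promoters of other genes lay below the limit in WT, with ranks of 7550 for Kdr and 7510 for Runx1. What set these ranks was not tested. At this size 2 window regions were called in both Shh-/- libraries and in neither WT library, at the 5' end of Fli1 and at the promoter of Polg2. The background was 304 of the 9282 regions left at this size (3.28%). Besides these 2, the only window regions left were the promoters of Tex2, Hdac6 and Ddx5 with Cep95, and the 3' flanks of Fli1 and Tal1. The share among the window regions left was thus above the background, and it was not tested. With all peaks WT1 called the Fli1 region and both WT libraries called the Polg2 promoter.

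**Figure D3:**
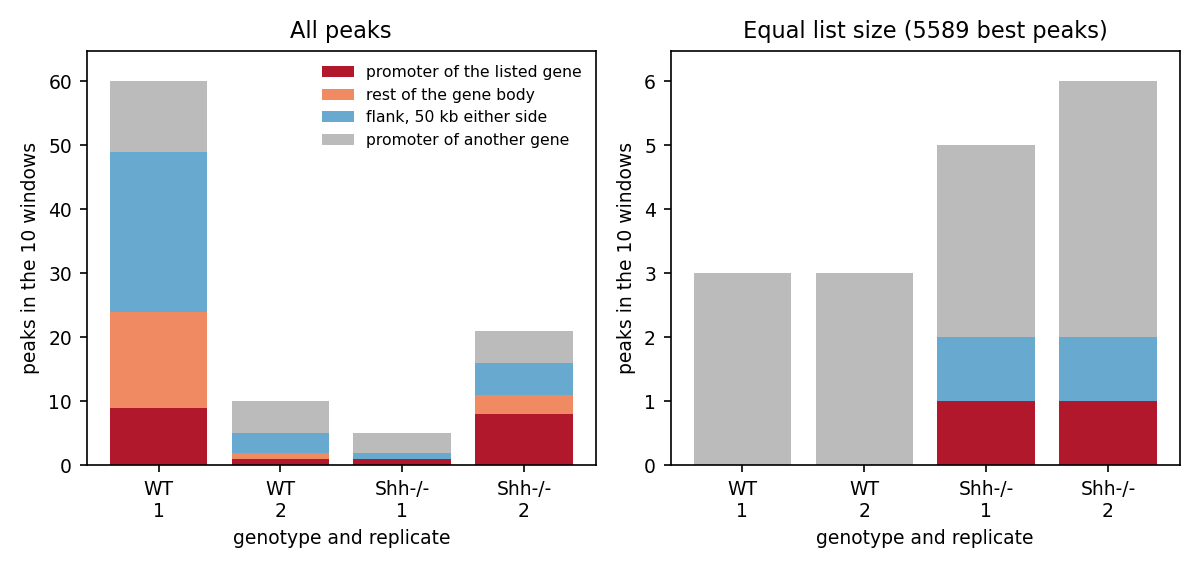
Bars count the peaks in the 10 windows for each library (genotype over replicate number), stacked by class, with all peaks on the left and the 5589 best peaks of each list on the right; the vertical axes differ in scale. With all peaks the bars reach 60, 10, 5 and 21, and at equal list size 3, 3, 5 and 6, where only the Shh-/- bars hold peaks outside promoters of other genes.

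The promoters of the 10 genes were also ranked against other promoters. In WT1 the median over the 6 with a peak was 26.1% of the list scoring higher, and over all protein-coding genes with a promoter peak it was 17.4%. In Shh2 the medians were 32.01% for 5 genes and 30.1% for all. The single promoters in the other libraries were further down, Gata2 at 85.7% in WT2 (31.1% for all genes) and Fli1 at 55.5% in Shh1 (38.2%).

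Promoter sequence was compared with the calls, as promoters rich in CpG were called far more often over the whole annotation. CpG-rich promoters, which remain unmethylated and accessible in most tissues, were defined by a GC content of at least 50% and a CpG observed to expected ratio of at least 0.6 in the 500 bp on either side of a TSS, taking for each gene the TSS with the highest ratio. Kdr (ratio 0.665), Fli1 (0.656), Tal1 (0.804), Gata2 (0.767) and Runx1 (0.865) were CpG-rich, and all 5 had a promoter peak in at least 1 library, as did 95.5% of CpG-rich genes in the annotation. Tek (0.317), Cdh5 (0.244), Pecam1 (0.294), Erg (0.448) and Gata1 (0.229) were not. Of those only Erg had a promoter peak, against 30.0% of the other protein-coding genes. With promoters of 500 bp on either side of the TSS Erg had none, and Fli1 had a promoter peak in 1 library in place of 3. The background at this width was not counted. 

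**Figure D4:**
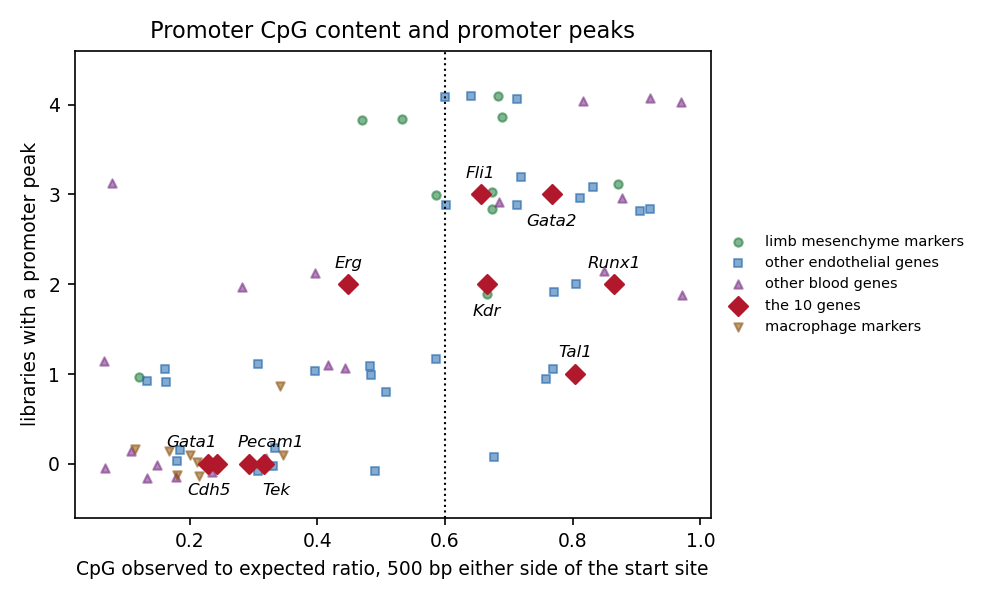
The horizontal axis gives the CpG observed to expected ratio around the TSS (dotted line at 0.6) and the vertical axis the number of libraries with a promoter peak; red diamonds are the 10 genes, smaller symbols are the other gene lists, shifted slightly in the vertical direction to separate them. Kdr, Fli1, Tal1, Gata2 and Runx1 lie right of the line with 1 to 3 libraries, and Gata1, Cdh5, Pecam1 and Tek lie left of it with 0.

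Further genes of both lineages were counted in lists chosen from textbook knowledge, with earlier results of these data known. Of 30 other endothelial genes, 22 had a promoter peak in WT1, 11 in WT2, 3 in Shh1 and 12 in Shh2. These are 73.3%, 36.7%, 10% and 40% of the list, beside a background of 60.4%, 39.2%, 17.3% and 51.3%. Those called in all 4 libraries were Klf2, a factor induced by blood flow, Ephb4, a receptor of venous endothelium, and S1pr1, a receptor for a lipid signal. Of the 30 genes 7 were called in no library, beside 37.9% of all protein-coding genes. Among these 7, Tie1, Emcn, Plvap, Nos3, Vwf and Icam2 encode proteins of differentiated endothelium and Sox17 is a transcription factor. Esam and Cldn5, also genes of differentiated endothelium, did have a promoter peak in WT1 (25.9% and 38.9% scoring higher). Of the 15 CpG-rich genes in this list 14 had a promoter peak in at least 1 library, and of the 15 others 9 did, with backgrounds of 95.5% and 30.0%.

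Of 20 other blood genes, 11 had a promoter peak in WT1, 6 in WT2, 3 in Shh1 and 12 in Shh2. These are 55%, 30%, 15% and 60% of the list, beside the same background of 60.4%, 39.2%, 17.3% and 51.3%. Tfrc, Zfpm1 and Bcl11a, all CpG-rich, were called in all 4 libraries. Gfi1b, Hba-a1, Hbb-bh1, Hbb-y, Alas2, Slc4a1 and Itga2b, none of them CpG-rich, were called in none. These are 7 of the 20 genes, beside 37.9% of all protein-coding genes. All 7 CpG-rich genes in this list had a promoter peak in at least 1 library, and of the 13 others 6 did, with backgrounds of 95.5% and 30.0%. Klf1, a red cell factor whose promoter is poor in CpG, had a promoter peak in 3 libraries, with 9.85% of peaks above it in WT1, 96.4% in WT2 and 36.5% in Shh2. Hba-x, an embryonic globin gene, had a promoter peak in Shh2 alone (42.3%). Epor, the erythropoietin receptor, had one in WT1 (29.9%) and Shh2 (24.8%). Hba-a1 has a near-identical copy, and how reads shared between copies were treated is not given, so its missing peak is uncertain.

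The libraries were checked against markers of other cells. All 10 markers of limb mesenchyme, among them Prrx1, Twist1, Msx1, Tbx5 and Lhx2, had a promoter peak in WT1, and 7, 6 and 8 did in WT2, Shh1 and Shh2. Prrx1, Lhx2, Meis1 and Fgf10 had one in all 4. Their share was above the background in every library, and it was above that of the 10 vessel and blood genes as well. At equal list size the counts were 4, 2, 6 and 4 in WT1, WT2, Shh1 and Shh2, and the share in WT2 (20%) was below the background (25.4%). Of 8 macrophage markers 1 had a promoter peak, Spi1 in WT1. None of these 8 was CpG-rich, and of the protein-coding genes without CpG-rich promoters 30.0% had a promoter peak in at least 1 library. These shares describe the lists, and no test was made of them.

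**Figure D5:**
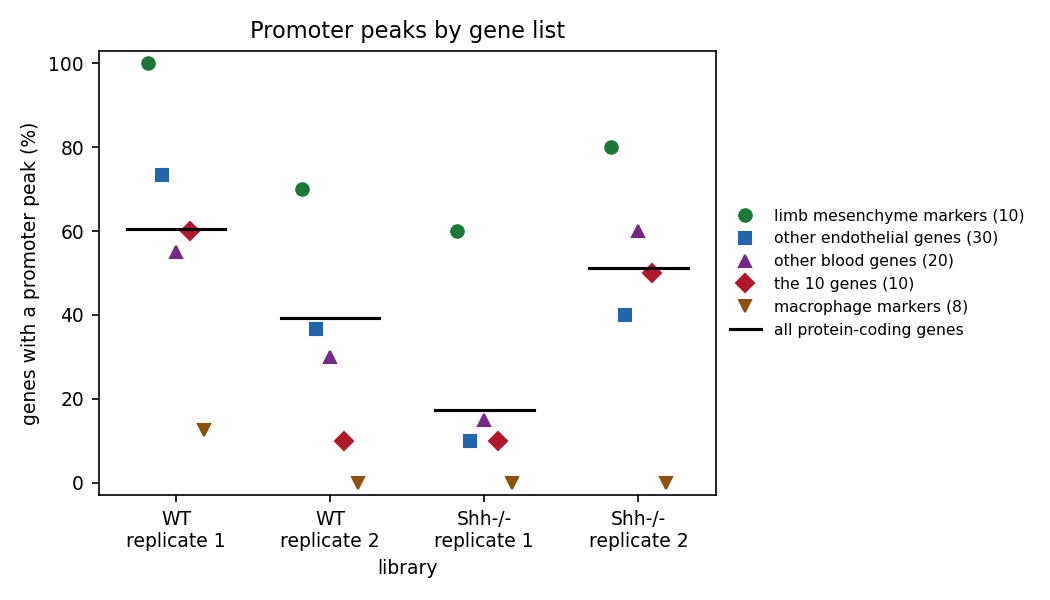
Symbols give the percent of genes in a list with a promoter peak in each library, with the number of genes in brackets, and black lines give the same for all protein-coding genes. Limb mesenchyme markers lie above the line in all 4 libraries (60 to 100%), and the 10 vessel and blood genes lie near it in WT1 and Shh2 and below it in the other libraries (10%).

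Motif content was compared with regions of the whole series in the 200 bp around the summit. Of the 53 regions outside promoters of other genes, 7 held a GATA motif (13.2%, against 8.55% of all regions), 12 an ETS motif (22.6% against 33.6%), 1 the forkhead and ETS composite (1.89% against 3.99%), 6 a RUNX motif (11.3% against 12.0%) and 10 the E-box (18.9% against 15.9%). Over the 42 distal regions the shares were 14.3%, 19.0%, 2.38%, 14.3% and 21.4% in the same order, beside 10.9%, 31.5%, 4.67%, 14.8% and 20.3% of all distal regions. The share with an ETS motif was below that of all regions in both sets. The AACAGGA composite shares the bases AGGA with the ETS motif AGGAAG, so a site can count for both. A match is a description of the sequence and not a bound site.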

How the data were processed

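ATAC-seq peak lists of 2 WT and 2 Shh-/- libraries were analysed, grouped by the genotype and replicate in their titles. The authors sequenced paired ends, and the submitters' processing notes name Bowtie2 2.2.5, MACS2 2.1.0 and mm10. Peaks were called per library with a q-value cutoff of 0.05. Read filters and any shift for the Tn5 cut are not given in the sources used here. The score of each peak is as deposited by the authors. By the format of the peak caller it is 10 times the highest −log10 q, a scale that the files do not state, and 3 further columns held 0 throughout. The score was used only within its own list. The methods give 1 nominal depth for all libraries, and the lists hold no read counts from which the depth of each could be taken, so no count model was fitted, and the study's limma test of peak signal was not repeated.

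Windows, promoters and start sites came from GENCODE M21 (basic set), and sequence from GRCm38.p6, the assembly of mm10 (0 peaks ended beyond a chromosome). Python 3.11.15, pandas 2.3.3 and pysam 0.24.0 were used, and the overlap and rank functions were tested on simulated intervals. The 10 genes and the other gene lists were chosen with earlier results of these data known. Regions were named if called in at least 2 libraries outside promoters of other genes, as were all promoters and the best peak of each library. List genes were named if called in all libraries or in none. Peaks of a single library and list genes outside these rules (Esam, Cldn5, Klf1, Epor, Hba-x, Spi1, Twist1, Msx1 and Tbx5) were chosen after their values were seen. Genotypes were compared by exact permutation tests over libraries. Alternatives were equal list size, a score of at least 50, other windows and overlaps, and leaving out libraries. The labels do not tie equal replicate numbers to a shared litter or day, so the main comparison had no block.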

Additional observations from a re-analysis of the deposited data

How the results depend on the processing

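The difference in window peaks (22 more in WT) kept its direction but not its size with no flank (7.5), 100 kb flanks (31), a score of at least 50 (3) and without promoters of other genes (18), and was 22 with summits in place of overlaps. The difference per 10000 peaks (1.69) was 0.160 with no flank, 0.327 with 100 kb flanks, 2.23 without promoters of other genes and -1.49 at that score. At equal list size the differences were -2.5 and -4.47, also with ties in reverse order. Leaving out each library gave -3 to 47.0 peaks and -1.81 to 5.19 per 10000, negative only without WT1 (47.0 and 5.19 were without WT2). With a replicate block the difference was 22 (55 for replicate 1 and -11 for replicate 2, exact sign-flip permutation, p = 1.0, with 0.5 the smallest value possible), and no test under any setting could pass 0.05.

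WT-specific regions, called in both WT libraries only, numbered 1, and 0 at equal list size (either order of ties) or a score of at least 50, 2 with 100 kb flanks and 1 to 41 without single libraries (41 without WT2, 5 without Shh2, 3 without WT1). Without WT2 such a region needs only a call in WT1 and none in Shh-/-, and 51.6% of all regions were called in WT1 alone. Shh-specific regions numbered 0, and 2 at equal list size (either order of ties), with 0 to 2 without single libraries (2 without WT1 or Shh1). The background at equal list size was 3.28% of the regions left at that size, where few window regions remained. The 3 regions called in all libraries became 0 with no flank or without promoters of other genes, 5 with 100 kb flanks and 3 to 7 without single libraries (5 without WT2, 7 without Shh1).

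The share of window peaks at promoters of other genes rose at equal list size to 100% in both WT libraries and 66.7% in Shh2, and at a score of at least 50 to 33.3% in WT1, 100% in WT2 and 45.5% in Shh2. With no flank it was 4% in WT1 and 0 in the others.

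Genes with a promoter peak in at least 1 library (6) fell to 1 at equal list size and numbered 5 to 6 without single libraries. Those in at least 2 libraries (5) fell to 1 at equal list size, 3 at a score of at least 50, 3 with promoters of 500 bp on either side and 2 to 5 without single libraries (2 without WT1 or Shh2). By library the counts at equal list size were 0, 0, 1 and 1, at a score of at least 50 they became 0 in WT2 and 3 in Shh2, and with 500 bp promoters 0 in Shh1 and 3 in Shh2, where Erg lost both of its calls. The share of all protein-coding genes was not counted with 500 bp promoters or without single libraries. The changes at those settings therefore cannot be told from a change over all genes. The cause was not tested. These promoter counts over libraries were chosen after the data were seen, as was the comprehensive annotation, which left both counts at 6 and 5. Unequal list length and a depth per library that the files do not give limit all of these values.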
